A study of Mus musculus with 12 samples.

Results

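The C/EBP transcription factors were followed as 4 genes, Cebpa, Cebpb, Cebpd and Cebpg, out of 14907 genes listed in the deposited tables and 13951 with values in all 12 libraries. The genes were taken by symbol, and all 4 had a value in every library. They had been chosen from their values in these same 12 libraries, with earlier results of these data known, so their levels and differences are given as a description, and counts of calls among them support nothing. The libraries came from primary small-intestinal mesenchymal cells of mouse, which form the connective tissue beneath the gut epithelium, cultured to passage 3 and sorted on GFP (strain label C57/Bl6). There were 3 libraries in each of 4 groups: wild type (wt) and MyD88ko cells, each untreated or given LPS. LPS, from the outer membrane of Gram-negative bacteria, came from E. coli and was given at 2 µg/ml for 6 hours after starvation from serum overnight, which all groups share.

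The MyD88ko libraries carry the genotype label ColVIcre-MyD88F/F-RosamTmG. It stands for a floxed Myd88 gene cut by a Cre driven from collagen VI sequences, with a reporter that turns to GFP where Cre has acted. This Cre is active in part of the intestinal mesenchyme, so the GFP sort defines which mesenchymal cells were grown. The wt libraries are labelled MyD88F/F-RosamTmG, with no Cre, while the series' design text calls the wt cells ColVIcre+. Without Cre this reporter gives no GFP to sort on, so the wt label and the GFP sort are at odds, and this was not settled. If the label is right, the deletion of Myd88, the presence of Cre and the sorting cannot be told apart in any comparison of genotypes. The labels do not say whether replicates were separate animals or cultures, so SDs and p-values measure the spread between these libraries, which may be technical. Untreated libraries carry a lower series of library codes and LPS libraries a higher one, and the effects of treatment and of library series cannot be told apart either. Within each treatment the MyD88ko libraries carry lower codes than the wt libraries, so genotype and the order of codes cannot be told apart.

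C/EBP proteins are transcription factors of the basic leucine zipper (bZIP) class, which bind DNA as dimers with each other or with related zippers. Cebpb and Cebpd encode C/EBPβ and C/EBPδ, immediate responders to cytokines and bacterial products that switch on acute-phase and inflammatory genes, often together with NF-κB. Cebpa encodes C/EBPα, a factor of differentiation in fat, liver and myeloid cells, and Cebpg encodes C/EBPγ, a widely expressed partner without a strong activation domain that heterodimerises with ATF4 on amino acid and stress genes. The receptor for LPS, TLR4, uses MyD88 and TRIF as its adaptors.

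The deposited coordinates (mm10) place Cebpb on chromosome 2 at 167688915 to 167690418 (+ strand) and Cebpd on chromosome 16 at 15887286 to 15891031 (+ strand). In the GENCODE M21 annotation each has a single coding transcript of 1 exon. Cebpa lies on chromosome 7 at 35119293 to 35121928 (+ strand), with 2 coding transcripts of 1 and 2 exons, and Cebpg on chromosome 7 at 35046422 to 35056573 (− strand), with 2 coding transcripts of 2 exons. Between the end of Cebpg and the start of Cebpa lie 62719 bases that hold 4 other annotated genes, so these family members are close neighbours on the chromosome. Cebpb overlaps Tmem189 and Cebpd overlaps Spidr, both on the opposite strand, and whether the authors' counting used strand is not given in the sources used here. Tmem189 had values of 80 to 159 over the 12 libraries and Spidr of 1 to 47.

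RefSeq promoter windows (GRCm38.p6) matched 3 of the 4 genes: Cebpa, Cebpb and Cebpg. The 250 bases before the start site are shown for a gene that was high with LPS (Cebpb), a gene whose groups all overlapped (Cebpg) and the low-level gene (Cebpa), because the 3 windows hold different short elements. All run 5′ to 3′ on the gene's own strand, and capitals mark the element named.
Cebpb, chr2:167688665-167688914, + strand, capitals TGACG or its reverse complement CGTCA, the half-site of the cyclic AMP response element (CRE): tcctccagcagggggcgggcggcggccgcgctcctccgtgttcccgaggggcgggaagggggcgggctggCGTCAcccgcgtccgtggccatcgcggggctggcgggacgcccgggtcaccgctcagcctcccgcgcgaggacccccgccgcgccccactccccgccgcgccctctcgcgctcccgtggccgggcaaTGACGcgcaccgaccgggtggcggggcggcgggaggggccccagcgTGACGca
Cebpg, chr7:35056567-35056816, − strand, capitals ATTGG, the reverse complement of the CCAAT box: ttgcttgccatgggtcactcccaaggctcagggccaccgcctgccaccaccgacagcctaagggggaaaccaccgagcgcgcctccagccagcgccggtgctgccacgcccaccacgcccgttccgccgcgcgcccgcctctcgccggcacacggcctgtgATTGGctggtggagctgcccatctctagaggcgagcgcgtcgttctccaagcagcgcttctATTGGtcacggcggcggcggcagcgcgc
Cebpa, chr7:35119043-35119292, + strand, capitals TATAAA, the TATA box: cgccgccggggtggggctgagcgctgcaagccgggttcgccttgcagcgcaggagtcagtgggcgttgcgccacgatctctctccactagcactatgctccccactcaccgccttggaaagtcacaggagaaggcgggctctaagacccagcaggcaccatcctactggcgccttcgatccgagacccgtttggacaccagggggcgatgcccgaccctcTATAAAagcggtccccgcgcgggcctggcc
Bases are counted back from the start site, so that -1 is the last base before it.

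The Cebpb window held 3 CRE half-sites, from -53 to -49 and from -7 to -3 on the gene's strand and from -180 to -176 on the other. Such a half-site occurs on either strand in 17.8% of 32851 promoter windows of this length. The Cebpg window held 2 CCAAT boxes, both on the other strand, from -89 to -85 and from -28 to -24, an element found in 33.8% of all windows. The Cebpa window held a TATA box from -30 to -25, found in 12.4% of all windows. None of the 3 windows held the letters TGANTCA of an AP-1 site (6.75% of all windows), TTCNNNGAA of a STAT site (7.02%), TTGCNNAA of a C/EBP core (9.56%) or the NF-κB consensus (3.9%), each searched on both strands. The searched motifs did not overlap each other at the matches. GC content was 81.6% in the Cebpb window, 70.8% in the Cebpg window and 66.4% in the Cebpa window, against a median of 52.4% over all windows. A match is a string of letters and not a site shown to be bound, and a missing match says only that these letters are not in the window.

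Values are the authors' normalized read counts, rounded to whole numbers. The sum of a library's values was 3598095 to 4319615, and reads of these 3′ libraries stem from transcript ends. In 9 of 12 libraries the steps left by rounding gave a size factor, from which 2.5 to 5.3 megareads were estimated to have been counted. Myd88, the targeted gene, had 99, 98 and 103 in untreated wt and 171, 204 and 213 in LPS-treated wt, against 14, 8 and 10 in untreated MyD88ko and 24, 22 and 5 in LPS-treated MyD88ko. It was 8.85-fold lower in untreated MyD88ko (limma adjusted p = 0.000471), and LPS-treated MyD88ko libraries were 13.0-fold below wt (adjusted p = 7.07e-05). The labelled cell type showed its markers: all 10 mesenchymal markers had values, with sums of 43329 to 141705 per library. Of 10 leukocyte markers 5 had values (sums of 21 to 60), and none of 8 endothelial markers did. Markers of every cell type were counted only where all 12 libraries had values, so a marker not counted may have values in some groups. Of 12 epithelial markers 5 had values, with sums of 393, 13 and 196 in untreated wt replicates 1, 2 and 3 and of 4 to 53 in the other 9 libraries. In these bulk samples fewer cells of a type and less RNA per cell cannot be told apart.

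Cebpb was highest in wt cells with LPS and lowest in untreated MyD88ko cells. Its values were 173, 112 and 181 in untreated wt (mean 155 ± 37.7, SD, n = 3) and 456, 535 and 486 in LPS-treated wt (492 ± 39.9). The MyD88ko values were 80, 79 and 84 without LPS (81.0 ± 2.65) and 142, 210 and 134 with LPS (162 ± 41.8). Every LPS library lay above every untreated library of its genotype. The LPS-treated MyD88ko libraries overlapped the untreated wt libraries, so these neighbours in the order did not differ beyond their spread, while the steps below and above them had no overlap.

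With LPS, Cebpb was 3.22-fold higher in wt, a difference of 1.69 ± 0.24 (SE of the fit) in log2(value + 1). In MyD88ko it was 1.95-fold higher (0.96 ± 0.24). Between genotypes it was 1.87-fold lower in untreated MyD88ko (-0.90 ± 0.24) and 3.08-fold lower with LPS (-1.62 ± 0.24). The response in MyD88ko minus that in wt was -0.72 ± 0.34.

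Cebpd had the same highest and lowest groups with wider folds. It stood at 164, 76 and 166 in untreated wt (135 ± 51.4) and at 649, 540 and 658 in LPS-treated wt (616 ± 65.7). In MyD88ko it stood at 45, 37 and 54 untreated (45.3 ± 8.50) and at 81, 120 and 67 with LPS (89.3 ± 27.5). Here too each LPS library was above all untreated libraries of its genotype. The order from low to high was untreated MyD88ko, LPS-treated MyD88ko, untreated wt and LPS-treated wt, and only the middle pair overlapped, through wt untreated replicate 2.

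The Cebpd mean with LPS in MyD88ko lay below the untreated wt mean, whereas for Cebpb the same pair of groups had close means. Cebpd was 4.78-fold higher with LPS in wt (2.26 ± 0.30, log2 scale, SE) and 1.91-fold higher in MyD88ko (0.94 ± 0.30). In MyD88ko it was 2.81-fold lower untreated (-1.49 ± 0.30) and 7.00-fold lower with LPS (-2.81 ± 0.30). Its response in MyD88ko minus that in wt was -1.32 ± 0.42.

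**Figure D1:**
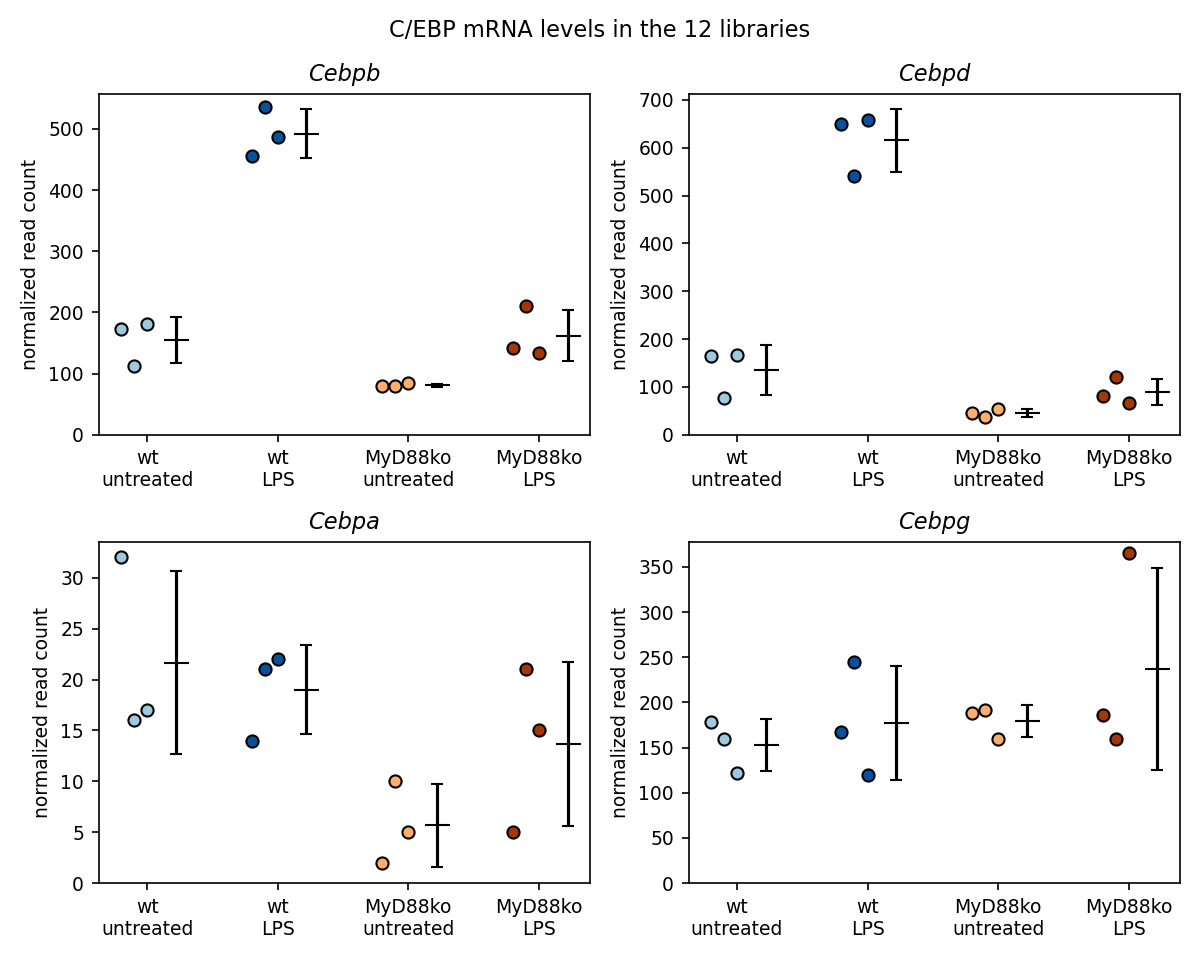
Normalized read counts of Cebpb, Cebpd, Cebpa and Cebpg (vertical axes, each from 0) in the 12 libraries by group, with points for replicates 1 to 3 and a bar for the mean ± SD. Cebpb at 456 to 535 and Cebpd at 540 to 658 in LPS-treated wt lie above all other libraries, while the groups of Cebpg overlap.

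Within untreated wt, replicate 2 was the lowest for both genes (112 and 76). The same library had the lowest sum of epithelial markers in its group (13, against 393 and 196) and the highest sum of mesenchymal markers (100697, against 51755 and 43329), and the part of these differences in the C/EBP values was not tested. Without replicates 1 and 3 of wt untreated, which leaves replicate 2 alone in that group, the LPS difference in wt was 2.12 for Cebpb and 3.00 for Cebpd on the log2 scale. The untreated difference between genotypes was then -0.46 for Cebpb and -0.75 for Cebpd. The genotype difference with LPS uses neither library. Epithelial marker sums there were 38 to 53 in wt and 4 to 33 in MyD88ko, and mesenchymal sums were 70230 to 116695 in wt and 131117 to 141705 in MyD88ko. Their part in it was not tested.

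Cebpa had low values throughout. It had 32, 16 and 17 in untreated wt (21.7 ± 8.96) and 14, 21 and 22 in LPS-treated wt (19.0 ± 4.36). MyD88ko cells had 2, 10 and 5 without LPS (5.67 ± 4.04) and 5, 21 and 15 with it (13.7 ± 8.08). In the 9 libraries with an estimated size factor these values stand for about 2 to 27 reads. The untreated MyD88ko libraries lay below all wt libraries of either treatment, and each neighbouring pair in the order of group means overlapped.

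Cebpa differed by -0.14 ± 0.60 on the log2 scale with LPS in wt and by 1.14 ± 0.60 in MyD88ko. In MyD88ko it was 3.71-fold lower untreated (-1.89 ± 0.60), without overlap between the groups, and differed by -0.62 ± 0.60 with LPS. The difference between both responses was 1.28 ± 0.85, wider in error than for any other family member. Fabp4 and Pck1 were the only ones of 8 adipocyte markers with values in all 12 libraries. They summed to 305, 152 and 193 in untreated wt and to 38 to 54 in LPS-treated wt. The sums were 28 to 78 in untreated MyD88ko and 3 to 24 in LPS-treated MyD88ko. Adipoq and Plin1, which define fat cells, did not have values in all 12 libraries. The part of such cells in the Cebpa values was not tested.

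Cebpg had overlapping values in all groups. They were 178, 159 and 122 in untreated wt (153 ± 28.5), 167, 245 and 120 in LPS-treated wt (177 ± 63.1), and 188, 192 and 159 in untreated MyD88ko (180 ± 18.0). LPS-treated MyD88ko libraries had 186, 159 and 365 (237 ± 112), and their high value came from replicate 3. Its log2 differences were 0.17 for LPS in wt, 0.30 for LPS in MyD88ko, 0.24 between genotypes untreated and 0.38 with LPS, each ± 0.30, with 0.13 ± 0.42 between the responses. Without MyD88ko LPS replicate 3 the LPS difference in MyD88ko was -0.06 and the genotype difference with LPS 0.02.

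**Figure D2:**
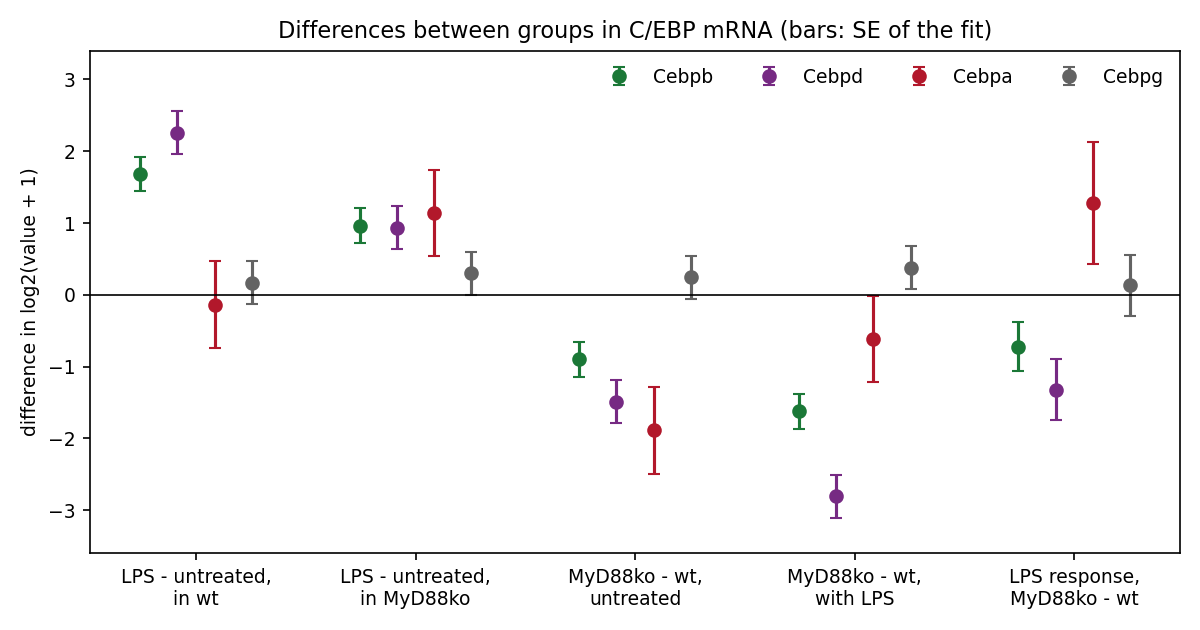
Differences in log2(value + 1) of Cebpb, Cebpd, Cebpa and Cebpg (vertical axis) in 4 comparisons of groups and in the difference between both LPS responses; bars are the SE of the fit over 12 libraries. Cebpb and Cebpd lie above 0 with LPS in both genotypes and below 0 in MyD88ko, and Cebpg lies within 0.38 of 0.

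In the limma fit over 12385 tested genes, calls were made where the p adjusted by Benjamini-Hochberg was under 0.05. With LPS in wt, 2 of 4 family members (Cebpb and Cebpd) were called higher, where 9.55% of all tested genes were higher and 9.66% lower, and those 2 had no overlap between groups in that direction, as 17.4% of all genes did. With LPS in MyD88ko, 1 of 4 (Cebpb) was called higher, against 2.58% of all genes higher and 3.4% lower, and 2 of 4 had no overlap, against 12.2%. In MyD88ko untreated, 1 of 4 (Cebpd) was called lower, against 1.09% of all genes lower and 0.791% higher, and 3 of 4 had no overlap, against 9.89%. In MyD88ko with LPS, 2 of 4 (Cebpb and Cebpd) were called lower, against 1.04% of all genes lower and 0.452% higher, and the same count had no overlap, against 8.31%. In the difference between both responses 0 of 4 were called by limma, as were 2 genes of all (0.0161%), with 1137 genes at an unadjusted p under 0.05. In the authors' deposited table, 2, 0, 1 and 2 of the 4 genes had an adjusted p under 0.05 in the 4 comparisons in this order, against 4.35%, 0.755%, 1.6% and 0.544% of the genes listed. Since these contrasts also served to choose the family, nothing is read from these counts. The genotype comparisons and the LPS comparisons share groups, so they are not independent of each other.

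The Cebpd call in untreated MyD88ko was lost when wt untreated replicates 1 and 3 were left out, together or singly, when MyD88ko untreated replicate 2 was left out and when limma had no trend. The Cebpb call for LPS in MyD88ko was lost when any 1 of the 3 untreated MyD88ko libraries or MyD88ko LPS replicate 2 was left out, and when limma had no trend. Its log2 difference was 0.94 to 0.99 without an untreated library, against 0.96 over all, and 0.76 without LPS replicate 2. Calls were also gained: Cebpd for LPS in MyD88ko without wt untreated replicate 2, without wt untreated replicates 1 and 3, or without MyD88ko LPS replicate 3, and Cebpb between untreated genotypes without wt untreated replicate 2 or MyD88ko LPS replicate 3.

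The ratio of Cebpb to Cebpd within a library is free of the scaling between libraries. It compares libraries and not the genes' amounts. It was 1.05 to 1.47 in untreated wt (mean 1.21 ± 0.232, SD, n = 3) and 0.703 to 0.991 in LPS-treated wt (0.811 ± 0.157). In MyD88ko it was 1.56 to 2.14 untreated (1.82 ± 0.292) and 1.75 to 2.0 with LPS (1.83 ± 0.143). In wt the LPS libraries lay below the untreated ones without overlap, in MyD88ko both treatments overlapped, and all MyD88ko libraries lay above all wt libraries.

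**Figure D3:**
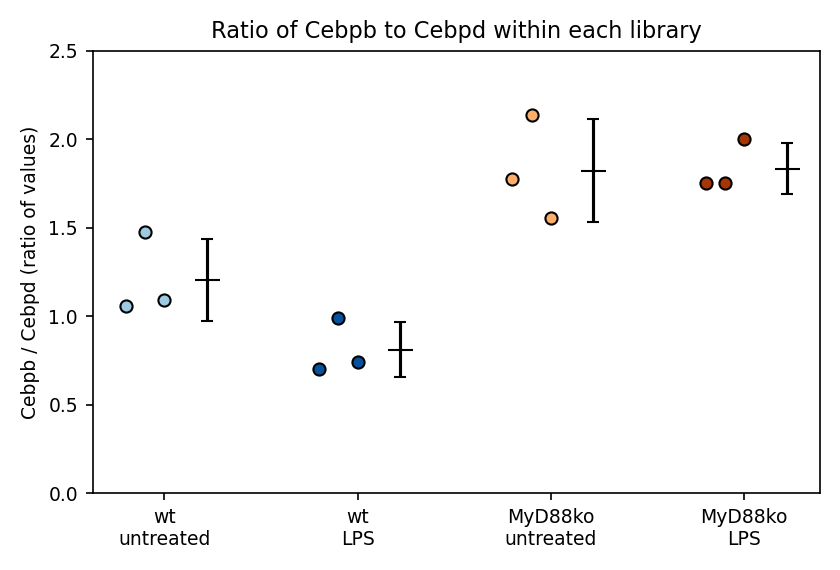
Ratio of the Cebpb value to the Cebpd value (vertical axis, no unit) in each library by group, with the mean ± SD beside the points. Wt libraries with LPS lie at 0.703 to 0.991 and the 6 MyD88ko libraries at 1.56 to 2.14.

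Likeness of profiles was measured as the root-mean-square difference of log2(value + 1), centred on its mean over the 12 libraries, between a family member and each of 9267 other protein-coding genes with a mean of at least 20 (9268 for Cebpa, which itself lies below that mean). The genes closest to Cebpb were Ets2 (0.25), a transcription factor, Vcam1 (0.34), an adhesion molecule for leukocytes, Nfkbia (0.38), the inhibitor of NF-κB, Hmox1 (0.38), a haem-degrading enzyme, and Sod2 (0.39), the mitochondrial superoxide dismutase. The median candidate stood at 1.05. Ets2, for example, had 112, 116 and 137 in untreated wt, 467, 420 and 341 in LPS-treated wt, 84, 62 and 56 in untreated MyD88ko and 121, 133 and 94 in LPS-treated MyD88ko. Closest to Cebpd were Zc3h12a (0.28), an RNase that degrades inflammatory transcripts, Ccl7 (0.47), a monocyte chemokine, Tmem176a (0.52), Cebpb itself (0.52) and Cxcl16 (0.56), a chemokine, against a median of 1.48. Cebpd in turn ranked 34th for Cebpb.

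The profile of Zc3h12a was 26, 20 and 40 in untreated wt, 111, 104 and 150 in LPS-treated wt, 12, 7 and 13 in untreated MyD88ko and 24, 31 and 18 in LPS-treated MyD88ko. As for Cebpd, replicate 2 was the lowest library of wt untreated and the highest of MyD88ko with LPS. For Cebpa the closest genes were farther away: Fam19a5, Fgf10 and Nupr1l (each 0.58), Golph3l (0.60) and Mgat5 (0.61), against a median of 1.07. Fgf10, a growth factor made by mesenchyme for the epithelium, had 190 to 222 in untreated wt and 153 to 204 in LPS-treated wt, against 68 to 130 in untreated MyD88ko and 61 to 142 in LPS-treated MyD88ko. Closest to Cebpg were Bmi1, Pcolce and Kpna6 (each 0.20), Uimc1 and Tep1 (each 0.21), against a median of 0.586. All 5 were highest in MyD88ko LPS replicate 3, as Cebpg was, with 317 for Bmi1 and 1048 for Pcolce in that library.

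**Figure D4:**
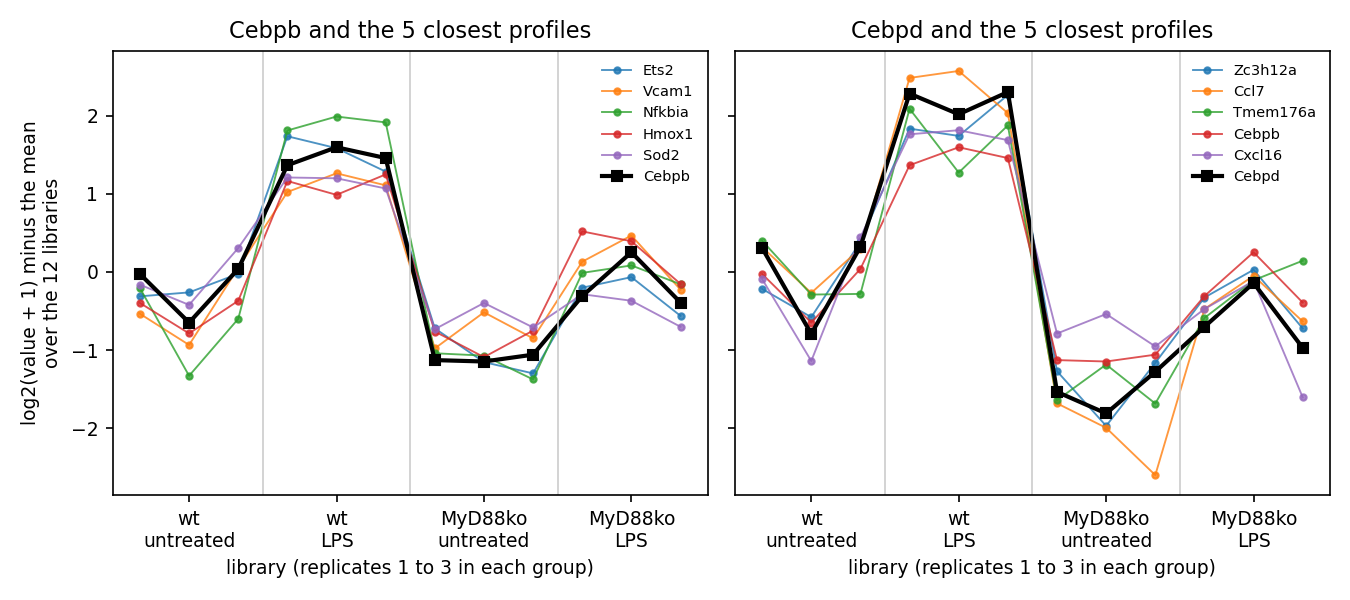
Values as log2(value + 1) minus the gene's mean over 12 libraries (vertical axis) for Cebpb (left) and Cebpd (right), in black, and the 5 genes with the smallest root-mean-square difference from each, by library and group. Differences are 0.25 to 0.39 for Cebpb and 0.28 to 0.56 for Cebpd.

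Among relatives and dimer partners of the family 1 gene was called. Of 13 relatives and bZIP partners 9 had values and were tested; Cebpe, Batf, Batf2 and Batf3 were not analysed here. With LPS in wt, 1 of 9 rose and 0 fell, and 0 of 9 changed in the other 4 comparisons. Among all tested genes 9.55% were called higher and 9.66% lower with LPS in wt, and 2.58% and 3.4% with LPS in MyD88ko. Between genotypes the shares higher and lower were 0.791% and 1.09% untreated and 0.452% and 1.04% with LPS. In the difference between both responses 0.0161% were called. The lists were chosen with earlier results known, so counts in this and the following lists are a description. The riser was Atf5, an ATF4-like stress factor, at 3000, 4781 and 2727 untreated and 5948, 6497 and 9290 with LPS (2.09-fold, 1.07 ± 0.26 SE, limma adjusted p = 0.00645). That call was lost without wt untreated replicates 1 and 3 (adjusted p = 0.358). Medians of the 9 log2 differences were 0.04 and 0.03 with LPS in wt and MyD88ko and 0.00 and -0.06 between genotypes untreated and with LPS. Over all tested genes the corresponding medians were 0.01, 0.00, 0 and 0.00.

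Of 18 cytokines, receptors and signalling genes that act upstream of Cebpb and Cebpd, 17 were tested. With LPS in wt 2 rose (Il6 and Jak1) and 1 fell (Osmr), and in MyD88ko 0 rose and 1 fell (Osmr). Between untreated genotypes 0 changed, and with LPS 3 were lower in MyD88ko (Osmr, Il6 and Lifr). Shares of all tested genes were 9.55% higher and 9.66% lower with LPS in wt, and 2.58% and 3.4% with LPS in MyD88ko. Between genotypes 0.791% were higher and 1.09% lower untreated, and 0.452% and 1.04% with LPS. Their median log2 differences were 0.35, 0.08, -0.42 and -0.55, beside all-gene medians of 0.01, 0.00, 0 and 0.00.

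Il6, a cytokine that drives acute-phase genes, had 8, 5 and 15 in untreated wt and 50, 54 and 77 with LPS, and 2, 10 and 3 then 8, 4 and 5 in MyD88ko. It rose 6.33-fold in wt (limma adjusted p = 0.00375) and was 9.32-fold lower in LPS-treated MyD88ko (adjusted p = 0.00539). Only its mean in LPS-treated wt reached the 10 needed for testing, so it was admitted through the group where it was high. Nothing is therefore read from its calls, here or among the inflammatory genes. Osmr, the oncostatin M receptor, fell in both genotypes while Cebpb and Cebpd were higher: 294, 345 and 355 to 147, 170 and 147 in wt (2.13-fold, adjusted p = 0.00243), and 133, 210 and 208 to 53, 58 and 62 in MyD88ko (3.09-fold, adjusted p = 0.000314). LPS-treated MyD88ko cells were 2.65-fold below LPS-treated wt (adjusted p = 0.00212). Jak1, a kinase on these receptors, rose 1.92-fold in wt (adjusted p = 0.00649), and Lifr, the LIF receptor, was 2.86-fold lower in LPS-treated MyD88ko (adjusted p = 0.047). The Lifr call was lost in 10 of 12 fits that left out a single library, with adjusted p of 0.0559 to 0.202 there.

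Of 18 regulators and cofactors of C/EBP proteins, 17 were tested. In wt 3 rose with LPS and 0 fell, where 9.55% of all tested genes were called higher and 9.66% lower. With LPS in MyD88ko 0 of 17 changed, where 2.58% of all tested genes were called higher and 3.4% lower. Between genotypes 1 was lower in MyD88ko both untreated and with LPS, beside 1.09% and 1.04% of all tested genes. The risers in wt were Siah2, a ubiquitin ligase (2.56-fold, limma adjusted p = 0.00304), Gsk3a, a kinase that phosphorylates C/EBP proteins (2.09-fold, adjusted p = 0.00407), and Nfkbiz. Nfkbiz, whose protein IκBζ works with C/EBP factors on secondary inflammatory genes, had 48, 87 and 45 in untreated wt and 147, 207 and 166 with LPS (2.96-fold, adjusted p = 0.0042). MyD88ko cells had 8, 9 and 15 without LPS and 22, 19 and 22 with it, which was 5.16-fold lower than wt untreated (adjusted p = 0.000963) and 7.86-fold below wt among LPS-treated cells (adjusted p = 8.31e-05). Its rise in wt was not called without wt untreated replicates 1 and 3 (adjusted p = 0.267), where its log2 difference was 0.97 against 1.57, and wt untreated had 1 library. The Gsk3a rise was not called there either (0.0752), with a log2 difference of 1.05 against 1.06 over all libraries. The median log2 differences of the 17 were 0.16, -0.06, -0.08 and -0.10 in the 4 comparisons.

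Inflammatory and acute-phase genes known to carry C/EBP sites had the lowest medians of the 6 lists in both comparisons of genotypes. Of 23 listed, 16 were tested. Cp, Lcn2, Hp, Mmp3 and Steap4 had means below 10 in both MyD88ko groups, so they were admitted through wt, where they were high. Il6, Mmp13 and Cd14 reached a mean of 10 only in LPS-treated wt. Nothing is read from the calls of these genes, which are part of the counts below. With LPS in wt 4 rose (Cxcl5, Ccl2, Cxcl1 and Il6) and 1 fell (Il1rn), and in MyD88ko 3 rose (Cxcl5, Ccl2 and Cxcl1) and 0 fell. In MyD88ko 9 were lower untreated and 10 with LPS, and 0 were higher. Shares of all tested genes with LPS were 9.55% higher and 9.66% lower in wt, and 2.58% and 3.4% in MyD88ko. Between genotypes 1.09% were lower untreated and 1.04% with LPS. The median log2 differences were 1.03 and 0.64 with LPS in wt and MyD88ko and -3.11 and -3.27 between genotypes untreated and with LPS, beside all-gene medians of 0.01, 0.00, 0 and 0.00. Lcn2 and Steap4 were listed at 0 in all untreated MyD88ko libraries, so no fold is given for them there, and without them the untreated genotype median was -2.88. All these medians include genes admitted through wt, and none was computed without Il6, Mmp13 and Cd14, so they are a description only.

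The neutrophil chemokine Cxcl5 had 464, 155 and 380 in untreated wt and 6242, 6439 and 4193 with LPS. MyD88ko cells had 3, 7 and 12 without LPS and 192, 354 and 279 with it. Cxcl5 rose 18.3-fold in wt (limma adjusted p = 1.86e-05) and 35.9-fold in MyD88ko (adjusted p = 2.3e-05), and it was 40.5-fold lower in untreated MyD88ko (adjusted p = 1.25e-05) and 20.6-fold below wt among LPS-treated cells (adjusted p = 7.07e-05). The rise in MyD88ko thus began from a lower level, and the difference between the responses was not called.

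Saa3, an acute-phase protein, had 5480, 1529 and 5461 in untreated wt and 9539, 6130 and 6455 with LPS. MyD88ko cells had 0, 5 and 17 without LPS and 23, 48 and 82 with it, lower than wt untreated (log2 difference -9.55 ± 0.95, limma adjusted p = 0.000963) and with LPS (-7.29 ± 0.95, adjusted p = 0.00461). Cp, the copper carrier ceruloplasmin, had 169, 126 and 86 in untreated wt against 3, 1 and 3 in MyD88ko (38.9-fold lower, adjusted p = 6.14e-05). With LPS it had 314, 139 and 226 against 14, 3 and 1 (43.7-fold lower, adjusted p = 2.81e-05). Since Cp was admitted through wt, nothing is read from these calls. Lcn2, the iron-scavenging lipocalin, had 97, 24 and 37 in untreated wt and 124, 32 and 93 with LPS, against 2, 0 and 0 in LPS-treated MyD88ko.

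The other genes of this list called lower untreated were Ccl2, Cxcl1, Ptx3, Mmp3 and Steap4, and with LPS Ptx3, Ccl2, Hp, Il6, Steap4 and Mmp3. Ccl2, a monocyte chemokine, rose by 3.46 on the log2 scale in wt (limma adjusted p = 5.45e-05) and by 3.76 in MyD88ko (adjusted p = 0.000166). Il1rn, the natural antagonist of IL-1, had 57, 93 and 117 in untreated wt and 19, 23 and 41 with LPS (3.17-fold lower, adjusted p = 0.00681). Without wt untreated replicates 1 and 3 its log2 difference was -1.79, against -1.67 over all libraries, with an adjusted p of 0.0779. The fall of Il1rn ran opposite to the higher Cebpb and Cebpd values. Epithelial cells also make Lcn2, Cxcl5, Cxcl1 and Saa3; the epithelial marker sums given above differ between wt untreated libraries, and their part was not tested. Of 10 hepatocyte markers 6 had values, with sums of 192 to 402 in untreated and 20 to 161 in LPS-treated libraries, and their part in these acute-phase genes was not tested. Without wt untreated replicates 1 and 3, 4 of the 15 list genes called between untreated genotypes were still called, and Lcn2 (adjusted p = 0.0922), Ccl2 (0.142) and Cxcl1 (0.115) were not. Among fits that left out a single library, the untreated call was lost in 5 for Ptx3 (adjusted p = 0.0521 to 0.205), in 6 for Mmp3 (0.0575 to 0.158) and in 9 for Steap4 (0.0616 to 0.251). With LPS it was lost in 4 for Mmp3 (0.0519 to 0.0888) and in 3 for Steap4 (0.0534 to 0.092).

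**Figure D5:**
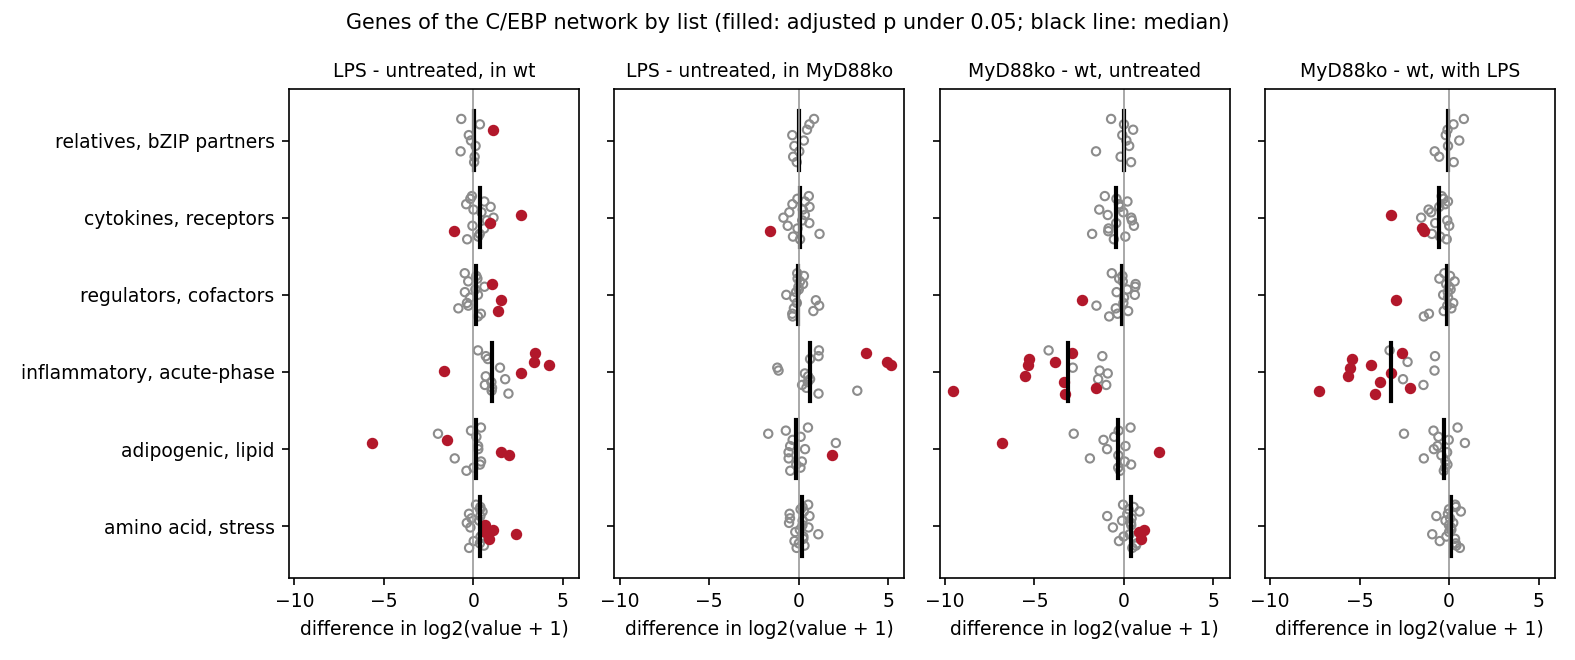
Differences in log2(value + 1) (horizontal axes) of the tested genes of 6 lists around the C/EBP factors, in 4 comparisons; filled points have a limma adjusted p under 0.05 and black lines are list medians. In both comparisons of genotypes the inflammatory and acute-phase genes lie farthest to the left, with medians of -3.11 and -3.27.

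Adipogenic and lipid-storage genes form a programme in which Cebpb and Cebpd act before Cebpa. Of 23 listed, 18 had values and 15 were tested; Pparg, Adipoq, Cd36, Cidec and Plin1 were not analysed here. With LPS in wt 2 rose (Lipe and Klf5) and 2 fell (Gata3 and Gata2), in MyD88ko 1 rose (Lipe), between untreated genotypes 1 was higher (Klf5) and 1 lower (Gata3) in MyD88ko, and with LPS 0 of 15 differed. The 4 of 15 called in wt stand beside 9.55% of all tested genes called higher and 9.66% called lower. These shares were 2.58% and 3.4% with LPS in MyD88ko, 0.791% and 1.09% between untreated genotypes, and 0.452% and 1.04% between genotypes with LPS. Lipe, the hormone-sensitive lipase, had 11, 5 and 14 in untreated wt and 44, 39 and 35 with LPS (3.91-fold, limma adjusted p = 0.00637), and 6, 8 and 8 then 44, 27 and 20 in MyD88ko (3.60-fold, adjusted p = 0.0243). Gata3, which restrains fat-cell formation and is also made by other cell types, had 957, 23 and 258 in untreated wt and at most 19 in every other library. Only its mean in untreated wt reached the 10 needed for testing, so Gata3 was admitted through the group where it was high. Nothing is therefore read from its calls. Its values in replicates 1, 2 and 3 followed the order of the epithelial marker sums, and the part of that was not tested. The Lipe call in MyD88ko was lost when any 1 untreated MyD88ko library, or LPS replicate 1 or 2 of MyD88ko, was left out (adjusted p = 0.0604 to 0.107). Klf5 lost its call in 4 of 12 such fits in wt (0.0501 to 0.141) and in 4 between untreated genotypes (0.0749 to 0.202), and Gata2 lost its own without wt untreated replicate 1 (0.0996) or wt LPS replicate 3 (0.0688). Without wt untreated replicates 1 and 3, Gata3 was called neither with LPS in wt (0.18) nor between untreated genotypes (0.298). The median log2 differences of the 15 were 0.16, -0.13, -0.31 and -0.30.

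Amino acid and integrated stress response genes, on which ATF4 and C/EBPγ act, were all tested (20 of 20). With LPS in wt 5 rose (Sesn2, Pycr1, Slc3a2, Sars and Psat1), beside 9.55% of all tested genes. In MyD88ko 0 changed with LPS, beside 2.58% of all tested genes higher and 3.4% lower. In untreated MyD88ko 3 were higher (Pycr1, Slc3a2 and Sars), beside 0.791% of all tested genes. With LPS 0 differed between genotypes, beside 0.452% of all tested genes higher and 1.04% lower. Sesn2, a sensor in nutrient stress, had 32, 40 and 17 in untreated wt and 148, 217 and 101 with LPS (5.14-fold, limma adjusted p = 7.87e-05), and 38, 33 and 35 then 74, 83 and 73 in MyD88ko (2.14-fold, adjusted p = 0.0623). Pycr1, an enzyme of proline synthesis, had 71, 113 and 71 in untreated wt, 200, 163 and 166 in LPS-treated wt and 167, 200 and 184 in untreated MyD88ko. It was thus high in untreated MyD88ko already (2.19-fold over wt, adjusted p = 0.0142). Leaving out single libraries, Psat1 lost its call in wt in 7 of 12 fits (adjusted p = 0.0514 to 0.182) and Sars in 9 (0.0506 to 0.144). The calls between untreated genotypes were lost in 4 fits for Pycr1 (0.0609 to 0.0944), in 4 for Slc3a2 (0.0673 to 0.184) and in 10 for Sars (0.0529 to 0.163). Without wt untreated replicates 1 and 3 the rises of Pycr1 (0.235) and Slc3a2 (0.229) in wt were not called, nor were those of Sars (0.212) and Psat1 (0.518), and Sesn2 was still called. All 3 calls between untreated genotypes were lost there (Pycr1 0.609, Slc3a2 0.59, Sars 0.438). The median log2 differences of the 20 were 0.38, 0.21, 0.40 and 0.08, while the groups of Cebpg itself overlapped.

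Across all 6 lists 0 tested genes were called in the difference between both LPS responses by limma, where 1137 of all genes had an unadjusted p under 0.05. The lowest limma adjusted p of a list gene was that of Gata3 (0.0841), and nothing is read from it, as Gata3 was admitted through untreated wt. So a call in wt and not in MyD88ko does not show that a list gene's responses differed. Of the 20 list genes called with LPS in wt, 10 were still called without wt untreated replicates 1 and 3.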

How the data were processed

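Messenger RNA was measured in 12 3′ mRNA libraries (QuantSeq, Ion Proton; RNA integrity number above 7), per the labels' protocols. Per the submitters' processing notes, the tools were TopHat2, Bowtie2 and DESeq and the genome build mm10; versions and roles are not given. The deposited expression values are scores: per-gene read counts that the authors normalized and then rounded to whole numbers. The deposited adjusted p-value per gene is the authors' own. Where a value stood in more than 1 table (166719 values), 0 differed.

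Values were analysed as log2(value + 1), the pseudocount being 1, with limma 3.58.1 in R 4.3.3 (limma-trend, robust), in 1 fit of 12 samples (each group its own coefficient, 8 residual degrees of freedom). A gene was tested if every sample had a value and 1 or more group means reached 10 (12385 genes). Folds are on this log2 scale, which understates those of low genes. Python 3.11.15 joined the tables. The fit was tested on simulated data first, and so were size factors, of which 5 of 8 could be estimated (largest error 0.0002).

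The 4 genes, 6 gene lists, 6 marker lists and all alternatives were chosen with earlier results of these data known. Named list genes were those called or among up to 4 with the smallest p in a comparison. Alternatives were a rescaling in the manner of TMM (computed without its package, since the values are not raw counts), quantile normalization, no trend, other filters and pseudocounts, only the groups compared, a replicate block, and leaving out libraries.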

Additional observations from a re-analysis of the deposited data

How the results depend on the processing

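Over the alternatives tried, the 4 genes' log2 differences took 431 further values. Of these, 425 moved by less than the spread between replicates and 6 by more. A called difference was reversed in 0, and 7 values changed sign, all for Cebpa or Cebpg. The 425 do not measure stability. With 3 libraries in a group, leaving out 1 cannot shift a difference between 2 groups beyond that spread. Trend, filter and the choice of groups fitted leave the difference itself unchanged. All 6 larger moves came from leaving out wt untreated replicates 1 and 3 together. Cebpb and Cebpd were then at 2.12 and 3.00 for LPS in wt, -0.46 and -0.75 between untreated genotypes, and -1.16 and -2.06 between responses. Genes called were then 969, 37 and 14 in these comparisons, and list genes 10 in the first and 4 in the second. Limma without trend called 425 genes for LPS in MyD88ko, 74 (8 list genes) between untreated genotypes, 112 between genotypes with LPS and 0 between responses. Between responses, quantile normalization called 4 genes and 1 list gene, and 0 genes were called with a mean of at least 50 or a pseudocount of 0.5 (unadjusted p under 0.05: 914 and 1126).

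Leaving out 1 library at a time gave 1570 to 2729 genes called for LPS in wt, 337 to 791 for LPS in MyD88ko, 64 to 412 and 85 to 197 between genotypes untreated and with LPS, and 0 to 44 between responses. List genes called were 16 to 24, 4 to 6, 8 to 18, 10 to 14 and 0 to 1. Counts per list took 654 further values: 605 stayed within 1.5 times, 33 were lower and 16 higher.

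Deviations of same-numbered libraries correlated weakly, at -0.114 to 0.171 in 12 pairs, 2 of them above 0.1. Weak correlation cannot show that same-numbered libraries were unpaired, and the labels do not say. With the replicate block, genes called were 2389, 763, 278, 206 and 2, 1 list gene was called between responses, and no call of Cebpb or Cebpd changed. The causes of these shifts were not tested. Cebpa gave no value with a mean of at least 50, and a fit of only the 2 groups compared gives none between responses. Depth limits the values of Cebpa, which stand for few reads.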
